A study of Mus musculus with 61 samples.

Results

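The libraries described here are 6 of the 61 whole-muscle RNA libraries of a study of exercise and regulatory T cells (Tregs) in mice. They were chosen by their labels, as the quadriceps of mice without the diphtheria toxin receptor at the Foxp3 locus (Foxp3DTR-, here DTR-), 3 after 2 weeks of exercise training and 3 from sedentary mice. Both groups were given diphtheria toxin (DT), which kills Tregs only where they carry the receptor, so these libraries are the toxin controls of the Treg depletion experiment. The same experiment holds 3 trained and 3 sedentary libraries of Foxp3-IRES-GFP.hDTR (DTR+) mice given DT, and a further experiment holds wild-type quadriceps 1, 2 and 7 days after acute exercise or at rest, 3 libraries each. The sources used here do not state the kind of exercise, or the age, sex and strain background of these mice. Nothing in the labels says that the 3 libraries of a group came from separate animals, so the p-values measure the spread between these libraries.

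A fast hindlimb muscle of the mouse is built mainly from glycolytic fibres that use the type 2B myosin heavy chain Myh4. Smaller numbers of fibres use the type 2X chain Myh1 or the more oxidative type 2A chain Myh2, and very few use the slow chain Myh7. Endurance training is known to move fibres from 2B towards 2X and 2A, to add mitochondria and capillaries, and to raise proteins that bear mechanical load at the Z-disc and M-band of the sarcomere. Quadriceps after 2 weeks of training in mice that keep their Tregs is the setting against which the study's depleted mice were measured.

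The trained DTR- libraries held 5254321 to 6116458 counts and the sedentary DTR- libraries 5429167 to 7119155, so that 3 counts, the most that a count of 0 leaves room for, were 0.426 to 0.552 CPM (counts scaled to a common library size). Foxp3 had 0 counts in each trained DTR- library, and 1, 0 and 3 counts in the sedentary DTR- libraries, which is too few to check the Treg content of these muscles. Fewer genes had any count in the trained libraries (19057 to 20761) than in the sedentary ones (20843 to 21857). The muscle markers Acta1, Ckm and Mylpf were among the abundant mRNAs of all 6 libraries. In the sedentary DTR+ group, libraries 2 and 3 stood apart, with levels that trended with transcript length in opposite directions (Spearman correlation across genes -0.562 and 0.517, against -0.165 to 0.234 in the 6 DTR- libraries). They give no value to the DTR- comparison but lend it spread.

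Training left a small and mostly upward mark on DTR- quadriceps. Among 12579 genes tested, 10 were higher and 3 lower in trained than in sedentary muscle at an adjusted p under 0.05, which is 0.0795% and 0.0238% of genes and 0.103% in all (edgeR quasi-likelihood test on all 12 libraries of the experiment, Benjamini-Hochberg adjustment). The genes that rose included genes of the sarcomere (Myh1, Myom3, Fhl1), the nuclear protein gene Mustn1 and the small heat shock gene Hspb7. The others were genes of oxygen storage (Mb) and fatty acid synthesis (Acly, Mid1ip1), the fetal RNA H19 and the ubiquitin hydrolase Uchl1. The calcineurin inhibitor Rcan1, the sugar phosphatase Tigar and the unnamed transcript B230312C02Rik fell. The median log2 fold change of all genes was 0.01, and 50.8% of genes were higher, so there was no general shift. Since whole muscle was measured, fewer cells of a type and less RNA per cell cannot be told apart in any of these results.

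**Figure D1:**
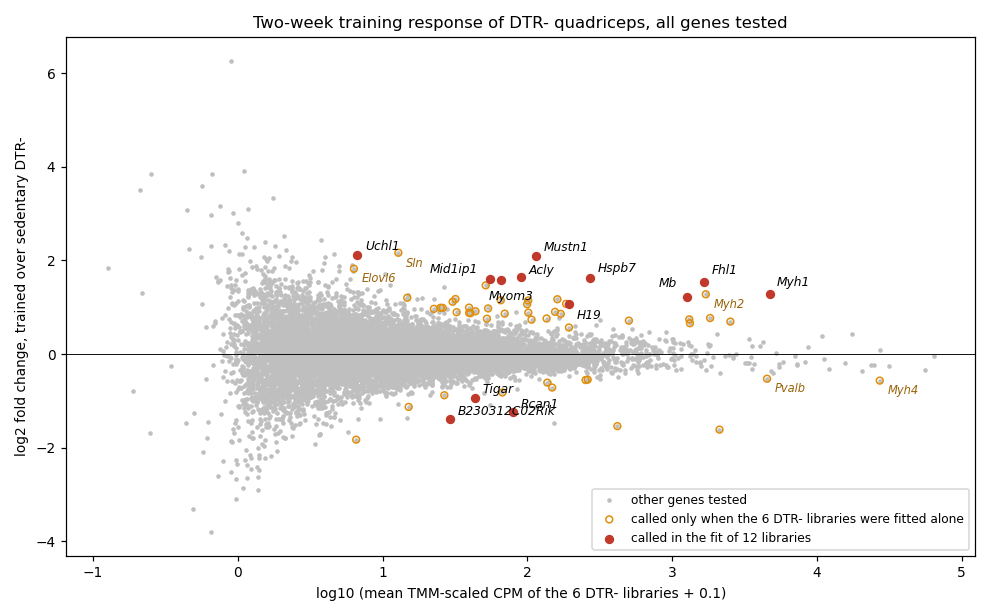
Each point is a gene in DTR- quadriceps, with the log10 of its mean CPM plus 0.1 over the 6 libraries on the x axis and the log2 fold change of trained over sedentary on the y axis. Filled points are the 13 genes past the threshold in the fit of 12 libraries, and open circles are the further genes that passed when the 6 DTR- libraries were fitted alone.

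How many genes passed depended on whose spread was used. Fitted alone, the 6 DTR- libraries gave 44 genes higher (0.373% of 11782 tested) and 16 lower, 0.509% in all, and these 60 included all 13. Without sedentary DTR+ libraries 2 and 3 the fit gave 34 genes, an alternative added after the data were seen. Leaving out trained library 1, 2 or 3 left 4, 4 and 9 genes, and leaving out sedentary library 1, 2 or 3 left 3, 6 and 3. Fhl1 passed in all 19 alternative settings and Mustn1 and Myh1 in 18 each. Uchl1, H19, Rcan1, Tigar and B230312C02Rik lost the call whenever any of the 6 libraries was left out, with their direction kept. Not every gene that passed only in the fit of 6 libraries is named. Those named are given below as values, most with both adjusted p-values. Most of them, and members of lists given by a log2 fold change alone, were named after their values were seen. The lists were chosen with earlier results of these data known. Their counts beside those of all genes are therefore descriptive and no independent support.

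Of the myosin heavy chains, 2X rose, while 2A lay higher and 2B lower without passing the threshold. Myh1 (chr11:67200052-67224575, GRCm38) stood at 8290, 6210 and 5780 CPM in trained DTR- libraries and at 2560, 2790 and 2950 CPM in sedentary DTR- libraries. The groups lay far apart, with the lowest trained library well above the highest sedentary one. The fitted log2 fold change was 1.29 ± 0.18 (SE), 2.44-fold, with an adjusted p of 0.004 (edgeR). Myh2 stood at 3340, 2160 and 1750 CPM in trained and 885, 1100 and 1000 CPM in sedentary libraries, also without overlap. Its log2 fold change of 1.28 ± 0.25 fell just short of the threshold (edgeR adjusted p = 0.0528, and 0.00282 in the fit of 6 libraries). Myh4, the most abundant of the 4 chains, was at 24200, 18500 and 22900 CPM in trained and 30000, 33500 and 33700 CPM in sedentary libraries. It was lower in each trained library than in any sedentary one (log2 -0.57 ± 0.14, edgeR adjusted p = 0.29, and 0.0234 in the fit of 6 libraries).

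Divided by transcript length and expressed as shares of the 4 adult myosin mRNAs, the trend was seen in every library. Myh1 made up 22.8, 22.8 and 18.8% of the adult myosin mRNA per kb in trained muscle, against 7.56, 7.34 and 7.73% in sedentary muscle. The Myh2 share was 9.18, 7.92 and 5.68% in trained and 2.61, 2.91 and 2.62% in sedentary muscle. The Myh4 share was 67.3, 68.7 and 75% in trained and 89.5, 89.1 and 89.2% in sedentary muscle, so the sedentary libraries were nearly alike while the trained ones spread over several points. For these 3 chains the exact two-sided permutation test gave p = 0.1, the smallest that 3 against 3 libraries allow. The slow chain Myh7 held 0.606 ± 0.104% in trained and 0.509 ± 0.146% in sedentary muscle (SD, n = 3 each), and its groups overlapped (exact permutation p = 0.4). The 4 genes are close copies of one another, and Myh1 and Myh2 overlap other annotated transcripts, so how the counting split shared reads limits the precision of these shares.

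**Figure D2:**
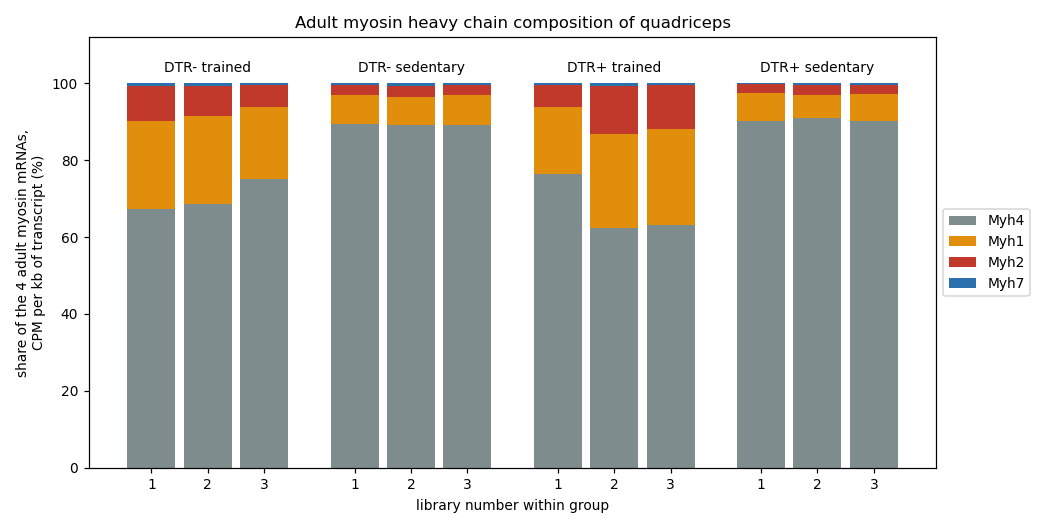
Bars give each quadriceps library's share of the 4 adult myosin heavy chain mRNAs (percent of CPM per kb of transcript), for trained and sedentary DTR- mice and then trained and sedentary DTR+ mice. Myh4 takes 67.3 to 75% in the trained DTR- bars and 89.1 to 89.5% in the sedentary DTR- bars.

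Around the myosins, the genes of fast contraction were lower more often than not, while those of slow fibres were divided. Of 17 fast fibre genes tested, 15 were lower in trained muscle, 11 of them with no overlap between the groups, against 6.89% of all genes that were lower without overlap. The other two were Myh1 and Myh2. The list's median log2 fold change was -0.31, beside 0.01 for all genes, but Myh1 was its one member past the threshold. Of all genes, 0.103% passed. Pvalb, the calcium buffer of fast fibres, was at 3620, 3310 and 4180 CPM in trained and 5820, 5460 and 4720 CPM in sedentary libraries (log2 -0.53 in the fit of 6 libraries with adjusted p = 0.0468, and 0.587 in the edgeR fit of 12). Of 14 slow fibre genes, 9 were higher and 5 lower (median 0.09), and 2 rose, against 0.0795% of all genes.

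Those slow fibre genes were Myom3 and Mb, and neither encodes a slow contractile protein. Myom3 (chr4:135759715-135815564), which encodes a crosslinker of the M-band in the middle of the sarcomere, was at 101, 112 and 81.7 CPM in trained and 30.2, 36.8 and 30.9 CPM in sedentary libraries. It rose by a log2 fold change of 1.59 ± 0.24 (edgeR adjusted p = 0.00705). Mb (chr15:77015487-77050670), the oxygen store myoglobin, was at 1670, 1860 and 1740 CPM in trained and 868, 799 and 607 CPM in sedentary libraries. The trained libraries were nearly alike, and Mb rose 2.32-fold (log2 1.21 ± 0.18, edgeR adjusted p = 0.00561). Casq2, the calcium-binding protein of slow and cardiac muscle stores, stood at 96.5, 104 and 69.7 CPM in trained and 45.4, 32.4 and 43.9 CPM in sedentary libraries (log2 1.15 ± 0.25, edgeR adjusted p = 0.127, and 0.0055 in the fit of 6). The contractile slow genes Myl2, Tnnt1 and Tnnc1 had log2 fold changes of 0.25, 0.40 and -0.23.

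Among 30 genes of calcium handling and calcineurin signalling, 21 were lower (median -0.09), 9 of them without overlap, against 6.89% of all genes. Pvalb is also on the fast fibre list and Casq2 on the slow fibre list. Of the 30 genes, 1 fell, against 0.0238% of all genes. This was Rcan1 (chr16:92391953-92470867), whose product binds and inhibits the phosphatase calcineurin and which is itself a known target of calcineurin signalling. It was at 45.1, 50.0 and 45.8 CPM in trained and 137, 103 and 94.5 CPM in sedentary libraries, about as even in the trained group as it was uneven in the sedentary one. The log2 fold change was -1.25 ± 0.23 (edgeR adjusted p = 0.0421). Sln, which encodes the calcium pump regulator sarcolipin, lay higher, at 27.1, 12.5 and 22.9 CPM in trained and 3.83, 5.52 and 4.63 CPM in sedentary libraries. It passed in the fit of 6 libraries (log2 2.16 ± 0.32, adjusted p = 0.00431) and not in that of 12 (edgeR adjusted p = 0.255).

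Of the 23 strain sensor and Z-disc genes, 2 rose, against 0.0795% of all genes. Fhl1 (chrX:56731787-56793346), a LIM-domain protein of the sarcomere that takes part in sensing stretch, was at 2550, 2290 and 2530 CPM in trained and 831, 829 and 853 CPM in sedentary libraries. Each group was tight and the gap between them wide, a 2.93-fold rise (log2 1.55 ± 0.18, edgeR adjusted p = 0.00101, the smallest of all genes). Mustn1 (chr14:30879200-30881610), a small nuclear protein of muscle and bone, was at 193, 232 and 135 CPM in trained and 43.7, 49.9 and 37.4 CPM in sedentary libraries. It rose 4.28-fold (log2 2.10 ± 0.27, edgeR adjusted p = 0.00164). Of the 23 genes on the list, 16 were higher and 10 were higher without overlap, against 8.09% of all genes that were higher without overlap (median 0.14).

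Other members of the list lay higher without reaching the threshold. Csrp3, or muscle LIM protein, which sits at the Z-disc, was at 250, 262 and 156 CPM in trained and 78.4, 134 and 84.4 CPM in sedentary libraries (log2 1.17 ± 0.31, edgeR adjusted p = 0.364, and 0.0162 in the fit of 6). Ankrd2, a titin-bound strain sensor, was at 174, 255 and 178 CPM in trained and 101, 120 and 104 CPM in sedentary libraries (edgeR adjusted p = 0.451, and 0.00995 in the fit of 6). Its relative Ankrd1 overlapped between the groups, at 9.72, 14.3 and 3.62 CPM in trained and 4.68, 4.97 and 3.43 CPM in sedentary libraries (log2 1.07 ± 0.42, edgeR adjusted p = 0.898). Xirp1, an actin-binding repair protein of the same list, went the other way with a log2 fold change of -0.59. Outside the list, Actn2, the Z-disc crosslinker of all fibre types, was at 2420, 2290 and 2200 CPM in trained and 1340, 1170 and 1550 CPM in sedentary libraries (log2 0.77 ± 0.17, edgeR adjusted p = 0.136, and 0.00377 in the fit of 6).

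Among the 25 chaperones, 1 small heat shock protein rose, against 0.0795% of all genes, and most other members lay lower. Hspb7 (chr4:141420779-141425311), a small heat shock protein of heart and skeletal muscle, was at 397, 491 and 348 CPM in trained and 149, 168 and 82.2 CPM in sedentary libraries, and it rose with a log2 fold change of 1.63 ± 0.27 (edgeR adjusted p = 0.0159). Hspb6 was at 1530, 1830 and 1510 CPM in trained and 1050, 1050 and 991 CPM in sedentary libraries (edgeR adjusted p = 0.236, and 0.00601 in the fit of 6). Cryab, which protects desmin filaments, was at 624, 736 and 513 CPM in trained and 407, 405 and 329 CPM in sedentary libraries (edgeR adjusted p = 0.888, and 0.0281 in the fit of 6). These 3 were the members of the list of 25 whose groups were apart in the upward direction. Other small heat shock proteins overlapped between the groups, among them Hspb1, at 112, 106 and 76.6 CPM in trained and 120, 122 and 96.3 CPM in sedentary libraries, and Hspb8, at 802, 752 and 756 CPM in trained and 766, 674 and 786 CPM in sedentary libraries. Of the 25, 17 were lower (median -0.13), and the groups of Hspa5, Hspa8, Dnaja1 and Chordc1 were apart in the downward direction, with log2 fold changes of -0.46, -0.40, -0.62 and -0.40 that did not pass. Of all genes, 8.09% were higher and 6.89% lower without overlap.

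**Figure D3:**
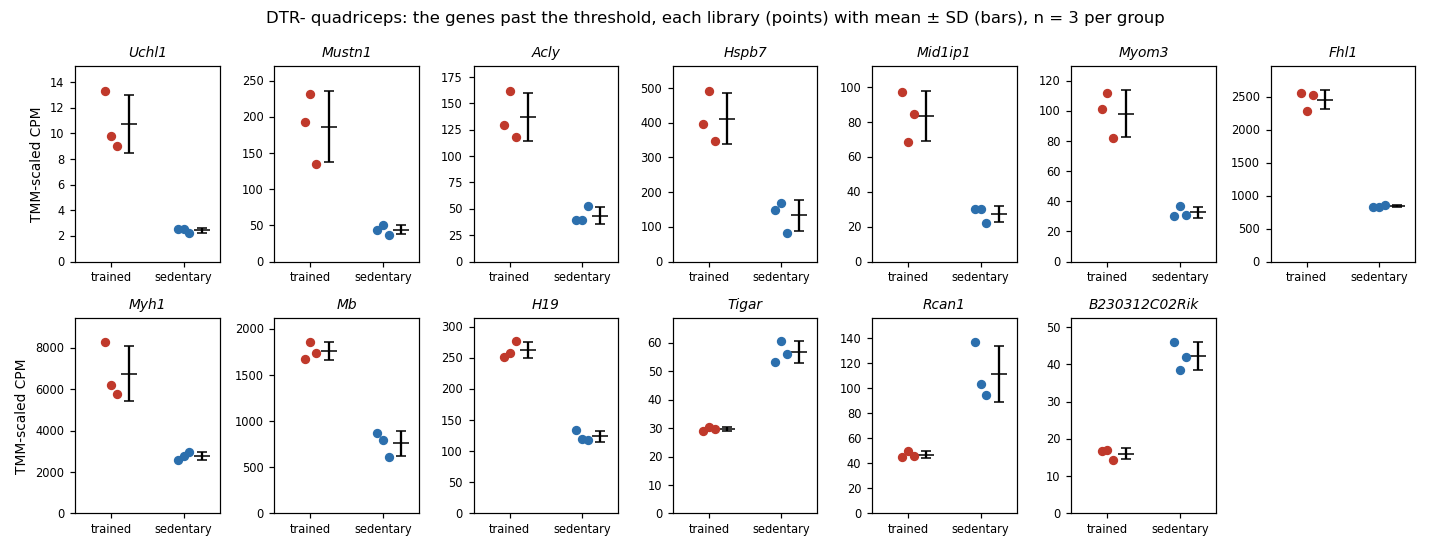
Each panel shows 1 of the 13 genes past the threshold, with the CPM of each library as points and the mean ± SD as bars, trained DTR- on the left and sedentary DTR- on the right (n = 3 each). In every panel the points of the groups are apart, from Uchl1 (means of 10.7 and 2.45 CPM) to Myh1 (means of 6760 and 2770 CPM).

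Genes that make fatty acids were higher in trained muscle. Cytosolic acetyl-CoA is made from citrate by ATP citrate lyase, carboxylated by acetyl-CoA carboxylase, built into palmitate by fatty acid synthase, and then lengthened and desaturated. Acly (chr11:100476353-100528000), the lyase, was at 130, 162 and 118 CPM in trained and 39.0, 39.2 and 52.7 CPM in sedentary libraries. It rose 3.13-fold (log2 1.64 ± 0.28, edgeR adjusted p = 0.0209). Mid1ip1 (chrX:10715013-10719690), whose product promotes the active polymer of acetyl-CoA carboxylase, was at 97.3, 68.5 and 84.7 CPM in trained and 30.0, 30.2 and 22 CPM in sedentary libraries. The groups were again far apart (log2 1.61 ± 0.24, edgeR adjusted p = 0.00561).

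Several enzymes downstream lay in the same direction without passing in the fit of 12 libraries. The carboxylase Acaca was at 20.8, 21.6 and 19.1 CPM in trained and 7.38, 9.21 and 10.1 CPM in sedentary libraries (edgeR adjusted p = 0.243, and 0.0372 in the fit of 6). The synthase Fasn was at 119, 166 and 119 CPM in trained and 53.7, 72.0 and 67.4 CPM in sedentary libraries (edgeR adjusted p = 0.393, and 0.00431 in the fit of 6). Every trained library was thus above every sedentary one for both enzymes. The elongase Elovl6 was at 9.09, 10.7 and 9.39 CPM in trained and 1.99, 3.87 and 2.40 CPM in sedentary libraries (edgeR adjusted p = 0.36, and 0.039 in the fit of 6). The desaturase Scd2 was at 50.5, 43.9 and 37.7 CPM in trained and 19.3, 19.9 and 19.2 CPM in sedentary libraries (edgeR adjusted p = 0.392, and 0.0041 in the fit of 6). The more abundant desaturase Scd1 overlapped between the groups, at 133, 259 and 160 CPM in trained and 109, 144 and 158 CPM in sedentary libraries. Me1, of the same list, overlapped too, at 75.1, 92.5 and 77.9 CPM in trained and 69.8, 88.9 and 90.1 CPM in sedentary libraries.

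In all, 14 of 20 genes of lipid synthesis and storage were higher, with a median log2 fold change of 0.43 beside 0.01 for all genes. Of these 20, 9 were higher without overlap, against 8.09% of all genes. In the fit of 12 libraries 2 rose, and in the fit of 6 libraries 6 passed as higher. Over all genes, 0.0795% and 0.373% passed as higher in those fits. The mitochondrial-membrane carboxylase Acacb, the triglyceride enzyme Gpam and the droplet coat gene Plin4 were not part of this, with log2 fold changes of -0.15, -0.12 and -0.07. The adipocyte marker Adipoq was at 15.8, 20.3 and 27.2 CPM in trained and 29.7, 20.4 and 21.4 CPM in sedentary libraries, and the droplet gene Cidec at 8.15, 10.7 and 12.2 CPM in trained and 16.3, 12.9 and 14.1 CPM in sedentary libraries. Of 9 adipocyte markers tested, 3 were higher and 6 lower in trained muscle, and the sum of all 10 was 1790, 2180 and 2270 CPM in trained and 2700, 2610 and 2660 CPM in sedentary libraries, most of it from Car3, which muscle also expresses.

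Genes of the respiratory chain were higher by small amounts, and none of them passed. Of 36 nuclear complex I genes, 34 were higher, 17 of them without overlap, with a median log2 fold change of 0.18. For complexes II to V, 38 of 40 genes were higher, 18 of them without overlap, with a median of 0.21. Of all genes tested, 50.8% were higher and 8.09% were higher without overlap. Levels trended with transcript length by 0.234, -0.165 and -0.116 in trained and -0.087, 0.206 and 0.153 in sedentary libraries (Spearman correlation). The fit behind these small differences did not remove that trend. Atp5g1, an ATP synthase subunit, was at 556, 713 and 620 CPM in trained and 472, 419 and 408 CPM in sedentary libraries (log2 0.54 ± 0.23, edgeR adjusted p = 0.934). Ndufb5, a complex I subunit, was at 481, 516 and 518 CPM in trained and 403, 411 and 370 CPM in sedentary libraries (log2 0.36 ± 0.22, edgeR adjusted p = 0.999). In sedentary DTR+ library 2, where the length trend was -0.562, Ndufb5 was at 717 CPM. In sedentary DTR+ libraries 1 and 3 it was at 365 and 323 CPM. The part of the length trend in the differences between trained and sedentary DTR- libraries was not tested. Of 11 mitochondrially encoded genes tested, 10 were higher and none without overlap. They took 6.27, 7.90 and 8.93% of counts in trained and 7.15, 6.90 and 4.98% in sedentary libraries (exact two-sided permutation test, p = 0.3).

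Other genes of oxidative metabolism showed the same pattern of many small differences. Fatty acid uptake and oxidation genes were higher in 26 of 32 members (median 0.22), those of the citrate cycle and pyruvate dehydrogenase in 24 of 30 (median 0.14), and those of the mitochondrial ribosome in 52 of 76 (median 0.10), with none past the threshold. The citrate synthase Cs was at 1150, 1300 and 1410 CPM in trained and 1150, 1090 and 1070 CPM in sedentary libraries (log2 0.22 ± 0.14, edgeR adjusted p = 0.999). Ckmt2, the creatine kinase of muscle mitochondria, was at 2810, 3360 and 3170 CPM in trained and 2130, 1760 and 1880 CPM in sedentary libraries (edgeR adjusted p = 0.587, and 0.0055 in the fit of 6). Coq8a, which is needed to make coenzyme Q, was at 1490, 1660 and 1770 CPM in trained and 1000, 960 and 982 CPM in sedentary libraries (log2 0.74 ± 0.16, edgeR adjusted p = 0.148, and 0.00174 in the fit of 6).

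The regulators of mitochondrial formation showed no detectable difference. Ppargc1a, the coactivator PGC-1alpha that muscle induces after each bout, was at 48.6, 58.4 and 41.8 CPM in trained and 43.7, 41.2 and 40.7 CPM in sedentary libraries, with overlap (log2 0.24 ± 0.25, edgeR adjusted p = 0.999). Of 20 genes of the PGC-1 axis, 9 were higher and 11 lower (median -0.01), and no member had groups apart in either direction. The mitochondrial transcription factor Tfam overlapped too, at 28.2, 39.9 and 35.7 CPM in trained and 42.7, 32.6 and 33.1 CPM in sedentary libraries. Pdk4, which shuts pyruvate out of the citrate cycle, varied widely, at 24.3, 112 and 81.7 CPM in trained and 190, 168 and 115 CPM in sedentary libraries (log2 -1.12 ± 0.48, edgeR adjusted p = 0.934).

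Genes of sugar use lay lower more often than higher. Of 31 genes of glucose uptake, glycogen and glycolysis, 20 were lower (median -0.17), with none past the threshold. The transporter Slc2a4 (log2 -0.08 ± 0.15) and the hexokinase Hk2 (log2 0.22 ± 0.18) overlapped between the groups. Tigar (chr6:127085116-127109557), a phosphatase that removes the glycolytic activator fructose-2,6-bisphosphate and is in none of the lists, fell. It was at 29.1, 30.5 and 29.8 CPM in trained and 53.2, 60.8 and 56.1 CPM in sedentary libraries (log2 -0.93 ± 0.18, edgeR adjusted p = 0.0447). Gpt, an alanine aminotransferase that links pyruvate to amino acids, was at 49.2, 58.7 and 49.6 CPM in trained and 25.7, 25.6 and 27.8 CPM in sedentary libraries (log2 0.99 ± 0.20, edgeR adjusted p = 0.0748, and 0.00577 in the fit of 6).

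The remaining calls had no common role. H19 (chr7:142575529-142578143), an imprinted RNA that is abundant in fetal muscle, was at 252, 258 and 277 CPM in trained and 134, 120 and 118 CPM in sedentary libraries, and it rose (log2 1.08 ± 0.20, edgeR adjusted p = 0.0421). Of 14 regeneration and fetal genes it alone rose, against 0.0795% of all genes. Of the 14, 10 were higher, and the embryonic myosin Myh3 (log2 1.01) overlapped between the groups. Uchl1 (chr5:66676091-66687234), a ubiquitin hydrolase best known from neurons, was at 13.3, 9.79 and 9.06 CPM in trained and 2.56, 2.58 and 2.23 CPM in sedentary libraries (log2 2.12 ± 0.40, edgeR adjusted p = 0.0447). The transcript B230312C02Rik (chr2:180370491-180385885), which falls outside the naming rule and is given because so few genes fell, was at 16.8, 17.0 and 14.3 CPM in trained and 46.0, 38.5 and 42.0 CPM in sedentary libraries (log2 -1.39 ± 0.26, edgeR adjusted p = 0.0421).

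Endothelial genes were higher in trained muscle, without any past the threshold in the fit of 12 libraries. Of 16 endothelial markers, 15 were higher (median 0.45) and 7 higher without overlap, against 8.09% of all genes. Their sum was 1200, 1510 and 1320 CPM in trained and 1050, 983 and 1010 CPM in sedentary libraries (exact permutation p = 0.1, the smallest possible). This sum includes Cd36 and Fabp4, which are also on the fatty acid uptake list. The same smallest p was reached by marker sums of many other cell types. Satellite cell and pericyte sums were higher in trained muscle, by 35.5 and 60.9 CPM. The satellite cell list shares Cd34 with the fibro-adipogenic progenitor list. Cd34 was at 99.8, 145 and 120 CPM in trained and 103, 74.2 and 86.3 CPM in sedentary libraries. The pericyte marker Rgs5 was at 298, 391 and 376 CPM in trained and 282, 274 and 308 CPM in sedentary libraries. Both overlapped between the groups. Of 9 satellite cell markers tested 3 were lower, and of 11 pericyte and smooth muscle markers 4 were lower. Adipocyte, erythroid and skeletal muscle fibre sums were lower, with fibre means of 181000 CPM in trained and 202000 CPM in sedentary libraries. Cldn5, a tight junction protein, was at 61.6, 98.4 and 52.7 CPM in trained and 39.3, 35.4 and 33.3 CPM in sedentary libraries (log2 0.98 ± 0.25, edgeR adjusted p = 0.34, and 0.0468 in the fit of 6). Tie1, an angiopoietin co-receptor, was at 53.0, 63.6 and 54.7 CPM in trained and 30.1, 38.1 and 22.6 CPM in sedentary libraries (log2 0.91 ± 0.25, edgeR adjusted p = 0.392, and 0.039 in the fit of 6). Both genes had their groups apart.

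Factors that steer vessel growth were higher in most cases, with none past the threshold in the fit of 12 libraries. Of 24 angiogenic factors and receptors, 20 were higher, 5 of them without overlap, and none was lower without overlap (median 0.33). Of all genes, 8.09% were higher and 6.89% lower without overlap. Aplnr, the apelin receptor of endothelial cells, was at 69.1, 76.9 and 80.9 CPM in trained and 33.1, 23.9 and 24.7 CPM in sedentary libraries (log2 1.47 ± 0.32, edgeR adjusted p = 0.136, and 0.000234 in the fit of 6). Vegfa, the vascular growth factor that muscle induces on exertion, was low and uneven, at 2.19, 0.544 and 0.659 CPM in trained and 2.27, 4.05 and 1.37 CPM in sedentary libraries (log2 -1.14 ± 0.71, edgeR adjusted p = 0.999).

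Matrix genes lay mostly higher and tendon markers lower. Of 38 matrix genes 28 were higher (median 0.19), 10 of them without overlap, against 8.09% of all genes. None passed in the fit of 12 libraries. The basement membrane collagen Col4a2 was at 225, 237 and 195 CPM in trained and 132, 130 and 100 CPM in sedentary libraries (edgeR adjusted p = 0.815, and 0.00553 in the fit of 6). Its partner Col4a1 had a log2 fold change of 0.76 (edgeR adjusted p = 0.898, and 0.0361 in the fit of 6). Postn, a matricellular protein of growing tissue, was at 30.4, 32.8 and 30.8 CPM in trained and 18.9, 14.2 and 8.58 CPM in sedentary libraries (log2 1.17 ± 0.32, edgeR adjusted p = 0.393). Fibrillar and tendon collagens had no common direction. The log2 fold change was -0.34 for Col1a2 and -1.13 for Col12a1, and 0.48 for Col3a1 and 0.50 for Col5a3. The groups of all 4 were apart, and none passed in the fit of 12 libraries. Col12a1 passed in the fit of 6 (edgeR adjusted p = 0.0468, and 0.931 in that of 12). Col3a1 was at 808, 886 and 735 CPM in trained and 711, 536 and 491 CPM in sedentary libraries, while Col1a1 overlapped between the groups (log2 -0.40). Tendon markers were lower in 9 of 10 members (median -0.55), 5 of them without overlap, against 6.89% of all genes. Their sum was 616, 593 and 560 CPM in trained and 817, 745 and 687 CPM in sedentary libraries (exact permutation p = 0.1, the smallest possible). Chad, a cartilage and tendon protein, was at 18.8, 19.8 and 17.6 CPM in trained and 34.2, 34.6 and 34.5 CPM in sedentary libraries (edgeR adjusted p = 0.542, and 0.0338 in the fit of 6). The part of tendon content in the collagen values was not tested.

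Markers of macrophages and of mast cells were higher in trained muscle, with none past the threshold in the fit of 12 libraries. Of 20 macrophage markers tested, 16 were higher (median 0.48) and 9 higher without overlap, against 8.09% of all genes. The sum of the list was 372, 451 and 367 CPM in trained and 293, 252 and 249 CPM in sedentary libraries (exact permutation p = 0.1, the smallest possible). Cd68, a lysosomal protein of macrophages, was at 14.6, 23.6 and 9.22 CPM in trained and 4.54, 6.26 and 3.60 CPM in sedentary libraries (log2 1.71 ± 0.40, edgeR adjusted p = 0.214). Lyz2, of the same list, was at 129, 148 and 123 CPM in trained and 83.9, 78.1 and 78.1 CPM in sedentary libraries (edgeR adjusted p = 0.393, and 0.0103 in the fit of 6). Class II antigen presentation lay in the same direction, with Cd74, the invariant chain, at 104, 83.4 and 82.4 CPM in trained and 55.5, 41.6 and 51.0 CPM in sedentary libraries (log2 0.86 ± 0.21, edgeR adjusted p = 0.243, and 0.0146 in the fit of 6). Of 15 genes of the MHC list 13 were higher (median 0.34) and none passed in the fit of 12. Mast cell and basophil markers were higher in 5 of 5 members tested, 2 of them without overlap (median 0.94), and the list summed to 30.1, 40.6 and 33.3 CPM in trained and 24.3, 12.5 and 16.8 CPM in sedentary libraries (exact permutation p = 0.1, the smallest possible). Cma1, a mast cell protease, was at 7.84, 14.0 and 8.40 CPM in trained and 5.39, 3.50 and 3.26 CPM in sedentary libraries (log2 1.30 ± 0.38, edgeR adjusted p = 0.542). Treg markers, among which Foxp3 was near 0, summed to 18.3, 18.9 and 20.4 CPM in trained and 22.1, 21.0 and 22.5 CPM in sedentary libraries (exact permutation p = 0.1), most of it from Ikzf2, which overlapped between the groups. The immunoglobulin gene Ighm, the one B cell marker tested, was at 106, 124 and 139 CPM in trained and 167, 141 and 138 CPM in sedentary libraries, with overlap. Markers of T and NK cells summed to 7.05, 6.35 and 12.2 CPM in trained and 6.39, 5.52 and 7.72 CPM in sedentary libraries, with overlap (exact permutation p = 0.5), and Cd3d was at 0 in all 6.

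Genes induced by interferon-gamma had no common direction in DTR- muscle. Interferon-gamma response genes were higher in 20 and lower in 18 of 38 tested members (median 0.03), and Ifng itself had 0 counts in the trained libraries and 1 count in the sedentary ones. Type I interferon genes were higher in 19 of 25 (median 0.29), with none past the threshold. Irgm1, an interferon-inducible GTPase, was at 21.0, 25.4 and 25.7 CPM in trained and 28.3, 20.6 and 27.3 CPM in sedentary libraries, with full overlap.

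**Figure D4:**
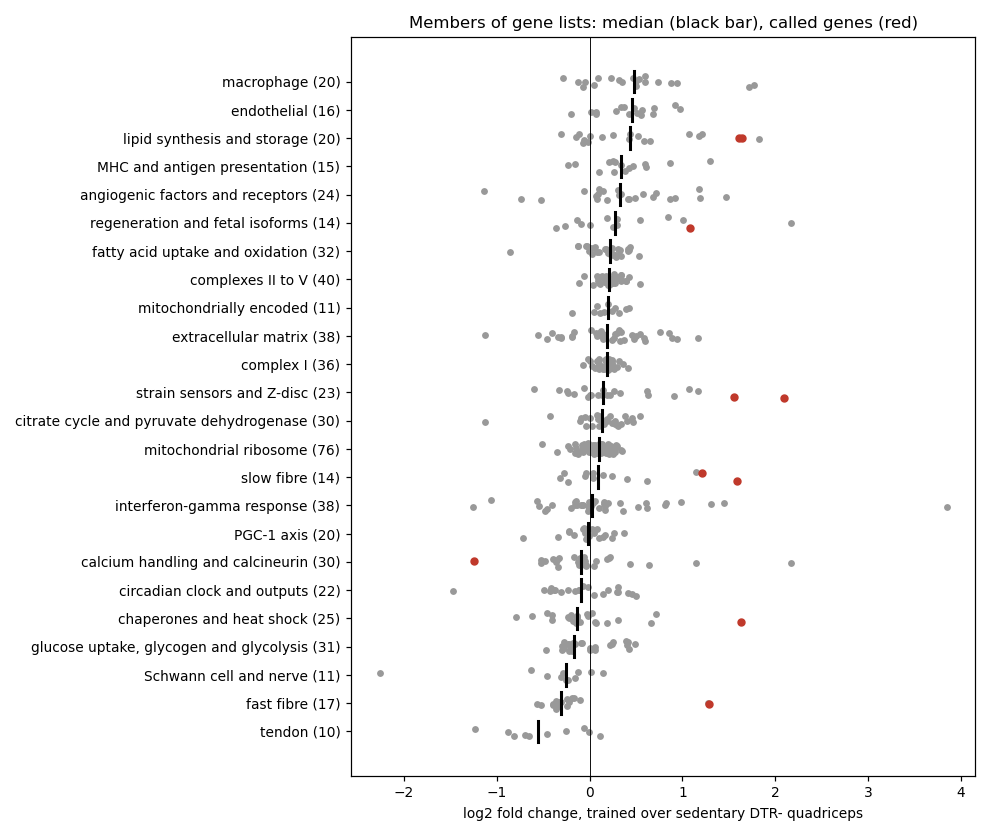
Each row is a gene list, with the number of members tested in brackets, and each point is a member's log2 fold change of trained over sedentary DTR- quadriceps. Black bars are medians, from 0.48 for macrophage markers to -0.55 for tendon markers, and red points are genes past the threshold.

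The other lists held no gene past the threshold in the fit of 12 libraries. Clock genes were higher in 9 and lower in 13 of 22 members (median -0.10), with Arntl at 58.8, 49.7 and 57.8 CPM in trained and 61.2, 70.7 and 90.6 CPM in sedentary libraries (log2 -0.42 ± 0.18, edgeR adjusted p = 0.934). Genes of atrophy and growth restraint were lower in 16 of 23 (median -0.07), and the growth brake Mstn overlapped between the groups, at 66.8, 65.1 and 90.8 CPM in trained and 74.8, 63.9 and 84.9 CPM in sedentary libraries. Autophagy and mitophagy genes were lower in 12 of 21 (median -0.13), and immediate early genes in 12 of 18 (median -0.07), among them Nr4a1 (log2 -0.71 ± 0.21, edgeR adjusted p = 0.56, and 0.0138 in the fit of 6). Genes of the neuromuscular junction were higher in 11 of 14 (median 0.24), with the receptor subunit Chrnb1 at 27.1, 37.2 and 37.6 CPM in trained and 21.9, 16.4 and 17.3 CPM in sedentary libraries (edgeR adjusted p = 0.364). Schwann cell markers were lower in 9 of 11, with sums of 157, 149 and 159 CPM in trained and 208, 183 and 171 CPM in sedentary libraries (exact permutation p = 0.1, the smallest possible).

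Trained DTR+ muscle, in which the toxin removes Tregs, shows whether the same genes answer training without Tregs. The DTR+ comparison shares no library with the DTR- one, although both were fitted together. Of 12579 genes 278 passed there (2.21%), and these included 12 of the 13 genes called in DTR- muscle in the same direction, which is 12 of 278 on the DTR+ side. The exception was Tigar (log2 -0.60 ± 0.18 in DTR+ muscle, edgeR adjusted p = 0.0838). The log2 fold change of Fhl1 was 1.55 ± 0.18 in DTR- and 1.89 ± 0.19 in DTR+ muscle. That of Myh1 was 1.29 ± 0.18 in DTR- and 1.36 ± 0.18 in DTR+ muscle, and that of Acly was 1.64 ± 0.28 in DTR- and 1.24 ± 0.28 in DTR+ muscle. The myosin shares of trained DTR+ muscle were of the same kind, with Myh4 at 76.5, 62.4 and 63.2% in trained and 90.1, 91.1 and 90.3% in sedentary DTR+ libraries. For none of the 13 did the difference between the responses pass (edgeR interaction, lowest adjusted p = 0.884 for Mb).

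The responses differed elsewhere. The interaction test called 34 genes (0.27%), 25 with the DTR- response above the DTR+ response and 9 below it, and the interferon-inducible GTPases led the lower ones. Irgm2 was at 13.3, 17.4 and 12.5 CPM in trained and 25.6, 18.0 and 15.4 CPM in sedentary DTR- libraries, and at 269, 683 and 201 CPM in trained and 35.5, 33.0 and 20.7 CPM in sedentary DTR+ libraries. The DTR- groups stayed low while every trained DTR+ library was several times above its sedentary group (log2 difference -4.13 ± 0.51, edgeR adjusted p = 0.00181). Irgm2 overlaps Igtp (log2 difference -3.52 ± 0.55), so their reads may be shared. Of 38 interferon-gamma response genes, 36 had the lower response in DTR- muscle and 7 passed, while of all genes 53.6% had the higher response in DTR- muscle and 0.0715% passed as lower. Among genes on the other side, Phlda3, a repressor of Akt signalling, was at 128, 75.4 and 33.6 CPM in trained and 51.5, 43.1 and 38.9 CPM in sedentary DTR- libraries, and at 22.9, 19.5 and 27.9 CPM in trained and 92.7, 165 and 135 CPM in sedentary DTR+ libraries (log2 difference 3.30 ± 0.47, edgeR adjusted p = 0.00779). How many genes passed depended on single libraries. Leaving out trained DTR- library 1, 2 or 3 left 2, 5 and 67 genes, and leaving out sedentary DTR- library 1, 2 or 3 left 4, 4 and 3. Leaving out trained DTR+ library 1, 2 or 3 gave 12, 11 and 149, and leaving out sedentary DTR+ library 1, 2 or 3 gave 41, 56 and 35. Without both sedentary DTR+ libraries 2 and 3, which leaves that group 1 library, no gene passed the edgeR interaction test, with 959 genes at an unadjusted p under 0.05 against 873 in the full set, where DESeq2 called 115.

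**Figure D5:**
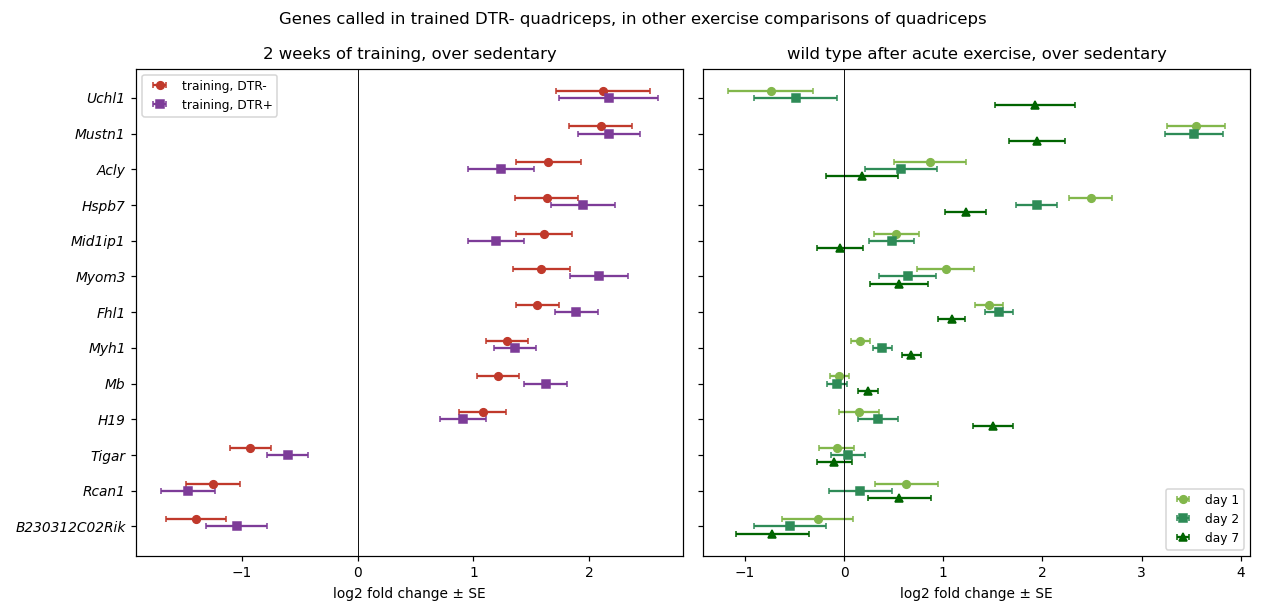
Log2 fold changes ± SE of the 13 genes called in DTR- training are shown over sedentary groups, for training of DTR- and DTR+ mice on the left and for wild-type quadriceps 1, 2 and 7 days after acute exercise on the right. Mustn1, Hspb7 and Fhl1 are above 0 at every wild-type day, while Mb lies between -0.08 and 0.24 there.

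Wild-type quadriceps after acute exercise shares no library with the training groups and differs from them in genotype, toxin and experiment as well as in the exercise, which cannot be told apart. In wild-type muscle 76 genes (0.582%), 39 (0.299%) and 28 (0.214%) passed at days 1, 2 and 7, and of the 13 trained DTR- genes 3, 3 and 5 were among them in the same direction. Fhl1, Mustn1 and Hspb7 were called on all 3 days, and Myh1 (log2 0.68 ± 0.10, edgeR adjusted p = 0.00253) and H19 (log2 1.50 ± 0.20, edgeR adjusted p = 0.00161) on day 7. Among load sensors, the log2 fold change of Csrp3 was 1.17 in trained DTR- muscle and 3.60, 2.85 and 1.44 at wild-type days 1, 2 and 7, and that of Ankrd1 was 1.07 in trained DTR- muscle and 4.64, 3.78 and 2.14 at those days. That of Mustn1 was 2.10 in trained DTR- muscle and 3.55, 3.53 and 1.95 at those days, and that of Fhl1 was 1.55 in trained DTR- muscle and 1.46, 1.56 and 1.08. The lipid gene Acly had a log2 fold change of 1.64 in trained DTR- muscle and 0.86, 0.58 and 0.18 at wild-type days 1, 2 and 7, none of these 3 past the threshold, and Mid1ip1 at 1.61 in trained DTR- muscle and 0.53, 0.48 and -0.04 at those days. Tested directly, none of these 6 genes passed for a difference in response between DTR- training and wild-type day 7. The log2 differences were -0.27 ± 0.43 for Csrp3, -1.08 ± 0.56 for Ankrd1, 0.14 ± 0.40 for Mustn1 and 0.46 ± 0.23 for Fhl1 (edgeR adjusted p = 1, 0.947, 1 and 0.947). They were 1.46 ± 0.49 for Acly and 1.64 ± 0.34 for Mid1ip1 (edgeR adjusted p = 0.757 and 0.109).

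Over all genes, that test of the trained DTR- response against the wild-type day 7 response called 4 of 13908 genes (0.0288%), all with the lower response in trained DTR- muscle, and none of the 13. Mid1ip1 had the smallest adjusted p among the 13, followed by Mb (log2 difference 0.96 ± 0.21, edgeR adjusted p = 0.163). Outside the 13, Gpt came next to the threshold (log2 difference 1.24 ± 0.24, edgeR adjusted p = 0.0607). The 4 genes called were the predicted genes Gm10717, Gm10800, Gm10801 and Gm21738, which were named after their values were seen. Gm10801 (chr2:98662237-98664083) and Gm10800 (chr2:98666547-98667301) are neighbours whose values moved together over the DTR- libraries. How the counting treated multi-mapped reads is not stated, so the 4 calls may not be independent. In the training comparison of DTR- muscle, Gm10800 and Gm10801 passed as lower in the fit of 6 libraries (edgeR adjusted p = 0.039 for both). They did not pass there in the fit of 12 (edgeR adjusted p = 0.898 and 0.888). Gm10801 was at 265, 262 and 116 CPM in trained and 315, 701 and 851 CPM in sedentary DTR- libraries, and at 630, 630 and 267 CPM at wild-type day 7 and 31.4, 56.7 and 62.7 CPM in sedentary wild-type libraries. In sedentary DTR+ libraries Gm10801 was uneven, at 807, 68.8 and 1030 CPM. The sedentary wild-type libraries were below all of the others, and without trained DTR- library 3, or without wild-type sedentary library 5, none of the 4 passed.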

How the data were processed

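Bulk RNA sequencing of whole quadriceps was analysed from a deposited table of whole-number read counts per gene (55011 genes, 61 libraries). The submitters' processing notes name STAR 2.7.3a, the build mm10 and featureCounts, from which the authors' counts come. RNA was taken from frozen muscle with TRIzol, and 2 ng went into each ultra-low-input library, per the labels' protocols. The sources used here state no annotation, strand setting or treatment of multi-mapped reads, so values of close copies and overlapping genes are uncertain. Of the 13 genes called, Mustn1, Hspb7, Myom3 and B230312C02Rik overlap no other annotated gene. Every column matched a labelled library, and 52936 symbols matched GENCODE vM21, from which GRCm38 coordinates and transcript lengths were taken.

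The 12 training libraries were fitted together (edgeR 4.0.16 in R 4.3.3) with group means, TMM factors, filterByExpr (minimum count 10, minimum total 15) and quasi-likelihood F tests, with Benjamini-Hochberg adjustment over all genes tested and calls at 0.05. The wild-type libraries were fitted alone, and the difference from wild-type day 7 in a fit of 24 libraries. The SE of a log2 fold change is its size over the square root of F. CPM values are scaled by the TMM factors. Sums and shares were compared by exact two-sided permutation tests, whose smallest p with 3 against 3 is 0.1. Lists were described by counts and medians. Alternatives were DESeq2 1.42.0, other scaling and filters, removal of length and GC trends (98.8% of tested genes had a length), a replicate block, other sets of libraries and leaving out each library. The fits were checked on simulated counts. Counting error alone leaves a gene with 0 counts room for 3. Replicates of a group differed beyond sampling noise (chi-square per degree of freedom 6.65 to 16.2).

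Members and gene lists were chosen with earlier results of these data known. Genes named were the called genes with established symbols, means of at least 5 CPM and separate groups, then those of smallest p up to 24, the called or 2 top members of each list, a fixed set of exercise genes, and the 8 top genes of each test of a difference. No promoter sequence is shown, as that needed a list with 3 called genes.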

Additional observations from a re-analysis of the deposited data

Results flagged for a closer look

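The training response differed between DTR- and DTR+ quadriceps for 34 genes by the edgeR interaction test. The log2 difference, DTR- response minus DTR+ response, was -4.13 for Irgm2, -3.52 for Igtp, -2.97 for Irgm1 and -3.33 for Iigp1, all interferon-inducible GTPases. It was 3.30 for Phlda3, 2.33 for the mitochondrial import gene Timm29, 3.25 for the ubiquitin ligase gene Rnf187 and 2.07 for the lysosomal membrane gene Lamp1. Rnf187 was at 183, 123 and 41.7 CPM in trained and 75.0, 82.1 and 86.5 CPM in sedentary DTR- libraries, and at 18.8, 19.0 and 37.6 CPM in trained and 138, 224 and 141 CPM in sedentary DTR+ libraries.

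The response differed between DTR- training and wild-type day 7 for 4 genes by the same test. The log2 difference, DTR- training response minus wild-type day 7 response, was -4.67 for Gm10717, -5.02 for Gm10800, -4.88 for Gm10801 and -4.64 for Gm21738. Gm10800 and Gm10801 are neighbours, and the 4 calls may not be independent. With groups of 3 libraries, no test for single outlying libraries was made.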

How the results depend on the processing

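Of the 13 genes, none changed direction in the 19 alternatives. Against 13 genes called, the count was 45 with no low-count filter, 36 with DESeq2, 60 with only the 6 DTR- libraries, 6 with all 61 libraries, 28 without sedentary DTR+ library 2 and 34 without its libraries 2 and 3 (both added after the data were seen). Leaving out 1 DTR- library gave 3 to 9. Upper-quartile and RLE factors, a filter at 5 CPM, leaving out mitochondrially encoded genes and removing length and GC trends gave 13 to 15.

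Of the 34 genes whose response differed from DTR+, the count was 147 with no filter, 115 with DESeq2 and 0 without sedentary DTR+ libraries 2 and 3. Leaving out 1 library gave 2 to 149, the lowest without trained DTR- library 1 and the highest without trained DTR+ library 3. Of the 4 genes that differed from wild-type day 7, the count was 36 with no filter, 14 with DESeq2 and 0 to 5 with 1 library left out, at 0 without trained DTR- library 3 or wild-type sedentary library 5 and at 2 without trained DTR- library 1 or 2, sedentary DTR- library 2 or 3, wild-type day 7 library 8 or 9 or wild-type sedentary library 6.

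Replicate numbers did not pair the libraries (correlation of same-numbered deviations -0.247, -0.0817 and -0.0603). With the replicate block 9 genes were called for DTR- training, 8 of them among the 13, and 22 for the difference from DTR+. With the block and length correction the counts were 15 and 30.

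Of genes named, 6 that were not called changed sign in an alternative: Cxcl10 (0 to 4.42 with 1 library left out), Cd3e (-0.19 to 0.63), Mmp9 (-0.24 to 1.60), Myh7 (-0.25 to 0.30, and -0.028), Tfam (-0.19 to 0.074) and Mstn (-0.18 to 0.094, and 0.0075, 0.0038, 0.039 and 0.040). The cause was not tested. Sums and shares kept their direction. Over the alternatives, list medians stayed within the spread of the trained libraries (SD) 806 times and moved beyond it 48 times. At 5254321 to 7119155 counts a library, genes under 1 CPM such as Foxp3 could not be compared.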

Other observations

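No list covered iron handling, and iron genes as a group were not counted. When the 6 DTR- libraries were fitted alone, 60 genes passed (0.509% of 11782), and 2 genes of iron transport were among them. The transferrin receptor gene Tfrc, through which cells take up iron, was at 189, 285 and 278 CPM in trained and 114, 126 and 117 CPM in sedentary libraries (log2 1.07 ± 0.15, edgeR adjusted p = 0.00219, and 0.367 in the fit of 12). Slc40a1, the iron exporter ferroportin, was at 56.1, 41.2 and 48.4 CPM in trained and 79.5, 79.7 and 98.1 CPM in sedentary libraries (log2 -0.82 ± 0.15, edgeR adjusted p = 0.0211, and 0.393 in the fit of 12). In DTR+ training the log2 fold change was 1.56 for Tfrc and -0.19 for Slc40a1 (edgeR adjusted p = 0.00631 and 0.782). These genes were picked after their values were seen.

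Among other genes of that fit, Smtnl1, which encodes a smoothelin-like protein of muscle, was at 142, 123 and 153 CPM in trained and 64.5, 67.8 and 56.6 CPM in sedentary libraries (edgeR adjusted p = 0.000389, and 0.136 in the fit of 12). The gap junction gene Gja1 was at 27.6, 36.1 and 36.4 CPM in trained and 18.7, 14.0 and 17.5 CPM in sedentary libraries (edgeR adjusted p = 0.039, and 0.243 in the fit of 12). Wif1, a secreted Wnt inhibitor, was at 3.76, 2.90 and 1.81 CPM in trained and 8.94, 11.8 and 9.61 CPM in sedentary libraries (edgeR adjusted p = 0.039, and 0.0536 in the fit of 12). The ubiquitin ligase adaptors Asb5 and Asb14 were lower, with Asb5 at 194, 206 and 236 CPM in trained and 316, 295 and 317 CPM in sedentary libraries (edgeR adjusted p = 0.039, and 0.76 in the fit of 12). For Asb14 the edgeR adjusted p was 0.0346, and 0.467 in the fit of 12. The transcription factor gene Grhl1 was at 0 in each trained library and at 1.70, 2.03 and 2.06 CPM in sedentary libraries, and it was too low to be tested in the fit of 12. It met the low-count filter of the fit of 6 only through its sedentary libraries. Its call there therefore gives no support for a difference.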
